A study of Mus musculus with 8 samples.

Results

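The genes described here drive or mark the cell division cycle: 17 genes of mitosis, 11 of DNA replication and 12 that control the passage through G1, 40 in all. They were taken as a list of gene symbols, and each was read from the probe set that the platform annotation gives to that gene alone. For a gene with several such probe sets, the brightest on average was taken. Of the 40 genes, 39 were measured in this way among 19938 genes in all. Ccnb1, a cyclin of mitotic entry, had no such probe set in the annotation used, so its expression was not analysed here.

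The samples were macrophages grown from mouse bone marrow in M-CSF (10 ng/ml) for 10 days, starved of serum overnight and then exposed for 4 h to IL-6 (50 ng/ml). Control cultures (Ctrl) came from mice whose Il6ra alleles, which encode the alpha chain of the IL-6 receptor, were flanked by loxP sites (IL6ralpha flox/flox). The other cultures (IL6raKO) came from IL6ralpha flox/flox mice with 1 LysMCre allele (LysMCre tg/wt), which expresses Cre recombinase in myeloid cells from the lysozyme 2 locus. Each genotype had 4 arrays, called biological replicates in the labels, and all 8 cultures had been starved and had received IL-6. Ages and sexes are not given in the labels, and the labels do not say whether every replicate had its own mouse, so p-values here reflect how much these arrays varied. No culture without IL-6 and no LysMCre control without floxed Il6ra was analysed here, so loss of the receptor and the presence of Cre cannot be told apart.

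Bone marrow progenitors multiply in M-CSF and largely leave the cell cycle as they become macrophages, and removal of serum lowers division further. In G1, D-type cyclins with CDK4 or CDK6 release E2F factors from the retinoblastoma protein, cyclin E with CDK2 follows, and E2F then switches on replication genes such as the MCM helicase subunits. Mitotic genes peak later, through the DREAM and MuvB-FOXM1 complexes, which reach their promoters at a short element called CHR, usually near CCAAT boxes bound by NF-Y. MYC drives entry into the cycle, the p27 protein encoded by Cdkn1b holds cells back, and STAT3, the transcription factor activated by IL-6, is known to act on Myc and Ccnd1 in several cell types.

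CHR letters were more frequent in promoters of the mitosis genes and E2F letters in those of the replication genes, and 7 promoters are shown to make the elements visible. They are the 180 bases before the annotated transcription start (positions -180 to -1), 5′ to 3′ on the gene's strand, from RefSeq on GRCm38.p6. Capitals mark the CHR letters (TTTGAA or TTCGAA), the CCAAT box (CCAAT) and an E2F site (TTTCCCGC, TTTGGCGC or TTTCGCGC), each on either strand. The first 4 are mitosis genes with CHR letters before the start, and the last 3 are replication genes with E2F letters there. In the promoters of Mcm6 and Mcm5, E2F matches on both strands overlap and form 1 longer run of capitals.
Cdk1 (chr10:69352913-69353092, minus strand): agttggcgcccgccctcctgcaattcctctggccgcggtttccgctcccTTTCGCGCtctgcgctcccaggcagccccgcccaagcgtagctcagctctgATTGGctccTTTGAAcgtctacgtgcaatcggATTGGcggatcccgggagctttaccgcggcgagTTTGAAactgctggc
Top2a (chr11:99024190-99024369, minus strand): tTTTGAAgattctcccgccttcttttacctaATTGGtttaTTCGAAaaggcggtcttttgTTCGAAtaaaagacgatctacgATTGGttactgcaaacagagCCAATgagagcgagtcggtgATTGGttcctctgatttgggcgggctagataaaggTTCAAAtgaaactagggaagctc
Cdc20 (chr4:118437344-118437523, minus strand): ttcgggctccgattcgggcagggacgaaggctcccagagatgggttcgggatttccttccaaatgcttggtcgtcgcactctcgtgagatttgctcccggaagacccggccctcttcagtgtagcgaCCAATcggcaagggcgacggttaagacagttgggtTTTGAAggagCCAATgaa
Kif11 (chr19:37376202-37376381, plus strand): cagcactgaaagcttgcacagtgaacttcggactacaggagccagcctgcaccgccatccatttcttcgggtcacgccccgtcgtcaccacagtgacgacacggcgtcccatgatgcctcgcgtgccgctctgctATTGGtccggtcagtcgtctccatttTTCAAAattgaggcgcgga
Mcm6 (chr1:128359706-128359885, minus strand): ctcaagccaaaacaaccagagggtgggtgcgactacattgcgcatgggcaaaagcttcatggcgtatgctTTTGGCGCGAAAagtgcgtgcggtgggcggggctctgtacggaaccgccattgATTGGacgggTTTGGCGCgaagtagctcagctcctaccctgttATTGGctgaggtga
Mcm5 (chr8:75109329-75109508, plus strand): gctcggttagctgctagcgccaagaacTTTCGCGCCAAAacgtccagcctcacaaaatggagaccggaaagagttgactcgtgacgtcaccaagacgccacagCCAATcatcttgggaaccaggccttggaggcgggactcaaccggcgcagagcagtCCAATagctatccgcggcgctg
Cdc6 (chr11:98907971-98908150, plus strand): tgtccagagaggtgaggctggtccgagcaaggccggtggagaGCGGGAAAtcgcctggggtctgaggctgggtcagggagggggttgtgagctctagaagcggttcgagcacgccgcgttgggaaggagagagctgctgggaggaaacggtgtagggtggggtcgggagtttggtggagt

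Promoters of 300 bases (250 before the start and 50 after it) were found for 32 of the 40 genes, Ccnb1 included. CHR letters were present in 12 of 14 mitosis genes (85.7%), 2 of 10 replication genes and 1 of 8 G1 genes, against 21.7% of all 27025 genes with a promoter. E2F letters were present in 5 of 10 replication genes, 2 of 8 G1 genes and 1 of 14 mitosis genes, against 2.12% of all genes. The split was not complete: the mitosis gene with an E2F match was Cdk1, whose kinase triggers mitosis, and the replication genes with CHR letters were Mcm2 and Mcm7. CCAAT was present in 13 of 14 mitosis genes, 8 of 10 replication genes and 4 of 8 G1 genes, against 41.1% of all genes. A match of these letters is a description of the sequence and not a measured binding site.

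The targeted gene, Il6ra, lay between 8.40 and 8.45 in Ctrl and between 7.75 and 8.10 in IL6raKO (log2 expression, in which a difference of 1 is a doubling). Its groups did not overlap (difference -0.50, SE 0.07, limma adjusted p = 0.0607), and the adjusted p missed the threshold used below. The array medians lay between 6.31 and 6.35. Of the 8 macrophage markers, Csf1r lay between 12.30 and 12.40, Adgre1 between 12.22 and 12.47, Cd68 between 12.78 and 12.97 and Itgam between 11.37 and 11.48. Lyz2 (12.995 to 13.309), Cd14 (10.527 to 11.115) and Fcgr1 (8.810 to 9.394) spanned more. Ctrl replicate 4 stood apart from the others, at 21.5 on the first principal component of all genes against -6.6 to 4.8. Its limma array weight, which is lower for arrays that vary more, was 0.55 against 0.95 to 1.25 for the others. Values on this scale depend on the probes, so levels of different genes are not set against each other.

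None of the 39 measured genes differed between genotypes beyond the test. In limma, a linear model fitted over all 19938 genes with Benjamini-Hochberg adjustment over all of them, 0 of 39 passed an adjusted p of 0.05 in either direction. The lowest adjusted p among them was 0.616. Over all genes, 0.0301% passed as lower and 0% as higher in IL6raKO. At an unadjusted p under 0.05 there were 2 of 39 lower (Ccnd2 and Cdc6) and 2 of 39 higher (Mcm4 and Myc), against 4.54% and 2.74% of all genes. All 4 IL6raKO values lay below all 4 Ctrl values for 1 of 39 genes (E2f1) and above them for 1 of 39 (Mcm4), against 2.37% and 2.07% of all genes. The differences (IL6raKO minus Ctrl, log2) ran from -0.24 for Ccnd2 to 0.26 for Ccne2, with a median of -0.03 against -0.01 for all genes.

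**Figure D1:**
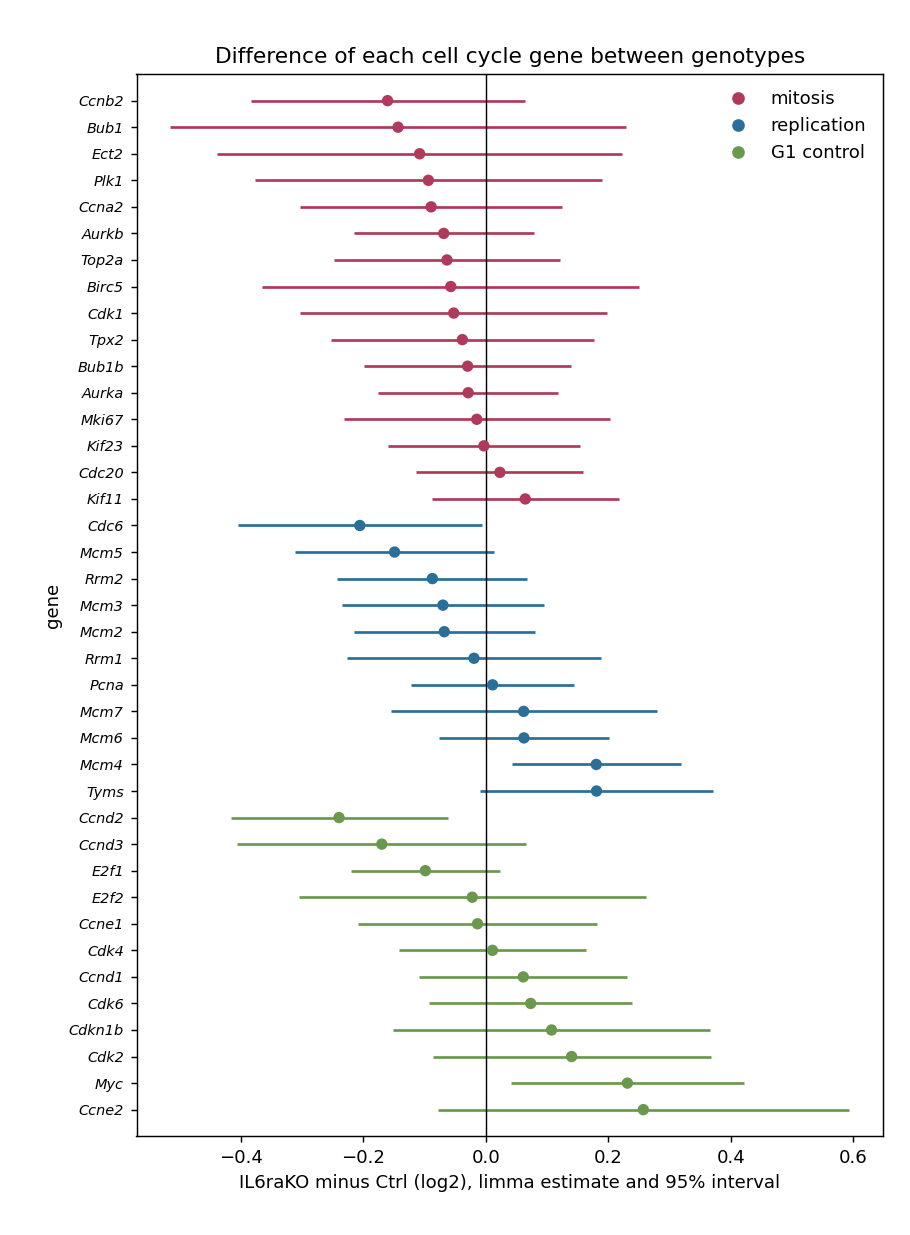
Difference between genotypes for the 39 measured genes (x axis: IL6raKO minus Ctrl in log2 units, with points for the limma estimate and lines for its 95% confidence interval; n = 4 arrays per group). The intervals of Ccnd2, Cdc6, Mcm4 and Myc leave out 0 before adjustment, and no gene passed after adjustment over all genes.

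Mitosis genes differed little between genotypes and varied from array to array. Of 16 measured, 14 had a difference below 0 and 2 above 0, from -0.16 for Ccnb2 to 0.06 for Kif11, and 0 passed. Of all 19938 genes, 10803 had a difference below 0. The mitosis genes varied together across arrays, as described below, so their signs are not independent of each other. Their median difference was -0.05. The most used marker of cycling cells, Mki67, which encodes the Ki-67 protein that coats mitotic chromosomes, stood at 8.02, 7.87, 7.93 and 7.89 in Ctrl replicates 1 to 4 and at 7.75, 8.23, 7.81 and 7.85 in IL6raKO replicates 1 to 4. The highest and the lowest Mki67 values were both in IL6raKO, and the difference was -0.01 (SE 0.10, limma adjusted p = 0.984). Its 95% confidence interval, -0.23 to 0.20, leaves room for changes of that size in either direction. Top2a, topoisomerase II alpha, which untangles DNA before chromosomes part, was at 7.90, 7.83, 7.95 and 8.09 in Ctrl and at 7.67, 7.92, 7.94 and 7.98 in IL6raKO. The groups overlapped, with Ctrl replicate 4 highest and IL6raKO replicate 1 lowest (difference -0.06, SE 0.08). A second, dimmer Top2a probe set gave 0.17 (SE 0.12, limma adjusted p = 0.784), the opposite sign.

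Among cyclins and kinases of mitotic entry, 1 array of a group often stood away from the rest. Cdk1 was at 6.56, 6.45, 6.41 and 6.90 in Ctrl and at 6.36, 6.72, 6.41 and 6.61 in IL6raKO (difference -0.05, SE 0.11). Ccnb2, a B-type cyclin that activates CDK1, was at 7.22, 7.16, 7.16 and 7.58 in Ctrl and at 7.07, 6.96, 7.25 and 7.21 in IL6raKO. For both genes Ctrl replicate 4 was the highest of all arrays. The difference of Ccnb2 was -0.16 (SE 0.10, limma adjusted p = 0.755), and without Ctrl replicate 4 it was -0.06. Ccna2, the cyclin of S phase and G2, was at 7.19, 6.83, 6.90 and 7.10 in Ctrl and at 6.69, 6.99, 6.99 and 6.98 in IL6raKO. IL6raKO replicate 1 was the lowest Ccna2 array, and the other 3 IL6raKO arrays lay within the Ctrl range (difference -0.09, SE 0.10). Aurkb, the kinase of the chromosomal passenger complex, was at 7.07, 6.91, 7.13 and 7.06 in Ctrl and at 6.98, 7.04, 6.99 and 6.89 in IL6raKO (difference -0.07, SE 0.07).

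Spindle and checkpoint genes included those with the widest spread. Bub1, a kinase of the spindle checkpoint, was at 6.39, 6.30, 5.94 and 6.42 in Ctrl and at 5.62, 6.27, 6.05 and 6.53 in IL6raKO. It spanned 0.91 over the 8 arrays, from IL6raKO replicate 1 to IL6raKO replicate 4. Ect2, the exchange factor that starts the cleavage furrow, was at 6.34, 6.36, 6.69 and 6.87 in Ctrl and at 6.21, 6.86, 6.30 and 6.45 in IL6raKO. Kif11, the kinesin that separates spindle poles, was at 6.66, 6.81, 6.65 and 6.78 in Ctrl and at 6.66, 6.81, 6.80 and 6.88 in IL6raKO. IL6raKO replicate 1 was the lowest of all arrays for Bub1 and Ect2, whereas for Kif11 it was level with Ctrl replicates 1 and 3. The differences between genotypes were -0.14 (SE 0.17) for Bub1, -0.11 (SE 0.15) for Ect2 and 0.06 (SE 0.07) for Kif11. Of the rest, Birc5, which encodes survivin, ran from 6.55 to 7.31, the polo kinase gene Plk1 from 6.19 to 6.81, and the spindle assembly factor Tpx2 from 6.12 to 6.55. The checkpoint gene Bub1b, the kinase Aurka, the anaphase activator Cdc20 and the kinesin Kif23 of the midbody had differences between -0.03 and 0.02.

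Replication genes had small differences of both signs. Of 11 measured, 6 had a difference below 0 and 5 above 0, and 0 passed (median -0.02). The 6 subunits of the MCM2-7 helicase, which unwinds DNA at the fork and acts as 1 ring, did not shift together: Mcm4, Mcm6 and Mcm7 had differences of 0.18, 0.06 and 0.06, and Mcm2, Mcm3 and Mcm5 of -0.07, -0.07 and -0.15. Mcm4 was at 7.64, 7.66, 7.55 and 7.63 in Ctrl and at 7.70, 7.89, 7.78 and 7.83 in IL6raKO. The groups did not overlap, yet the difference (0.18, SE 0.06, 95% confidence interval 0.04 to 0.32) had a limma adjusted p of 0.625. Mcm5 was at 6.18, 6.20, 6.33 and 6.45 in Ctrl and at 6.17, 6.18, 6.18 and 6.04 in IL6raKO. Ctrl replicates 3 and 4 lay above the other arrays, and the difference was -0.15 (SE 0.07, limma adjusted p = 0.707). Mcm2 was at 7.10, 7.16, 7.10 and 7.21 in Ctrl and at 6.92, 7.16, 7.12 and 7.10 in IL6raKO. Mcm7 was at 6.56, 6.29, 6.49 and 6.79 in Ctrl and at 6.64, 6.57, 6.46 and 6.70 in IL6raKO. Every IL6raKO array of Mcm7 lay within the Ctrl range, as did those of Mcm2 other than replicate 1.

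Among the other replication genes, Cdc6, the factor that loads the helicase onto origins, was at 5.57, 5.31, 5.40 and 5.49 in Ctrl and at 5.14, 5.48, 5.11 and 5.23 in IL6raKO. In IL6raKO 3 of 4 arrays lay below every Ctrl array and replicate 2 lay among them (difference -0.21, SE 0.09, limma adjusted p = 0.676). Tyms, thymidylate synthase, was at 6.19, 6.30, 6.47 and 6.11 in Ctrl and at 6.57, 6.43, 6.32 and 6.48 in IL6raKO (difference 0.18, SE 0.09, limma adjusted p = 0.701), with overlapping groups. Rrm1, the large subunit of ribonucleotide reductase, was at 7.65, 7.79, 7.57 and 7.60 in Ctrl and at 7.35, 7.79, 7.69 and 7.71 in IL6raKO. IL6raKO replicate 1 was again the lowest array, and the genotype difference was -0.02 (SE 0.09). Rrm2, the small subunit, ran from 5.67 to 5.99 with a difference of -0.09 (SE 0.07). Pcna, the sliding clamp of DNA polymerases, was at 11.996, 11.886, 11.914 and 11.911 in Ctrl and at 11.935, 11.908, 11.876 and 12.032 in IL6raKO. It spanned 0.16 over all arrays. The 2 probe sets annotated to Pcna gave nearly the same values (differences of 0.01 and 0.01), and the RefSeq table also lists the pseudogenes Pcna-ps1 and Pcna-ps2, whose transcripts these values may not separate from Pcna.

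G1 regulators held the largest differences in both directions, and none of these passed. Of 12 measured, 5 had a difference below 0 and 7 above 0 (median 0.04). Myc was at 7.41, 7.52, 7.64 and 7.59 in Ctrl and at 7.84, 7.57, 7.94 and 7.74 in IL6raKO. In IL6raKO 3 of 4 arrays lay above every Ctrl array, and replicate 2 lay among them. The difference of Myc was 0.23 (SE 0.09, 95% confidence interval 0.04 to 0.42, limma adjusted p = 0.652), 117% of the Ctrl level. Stat3 itself was lower in IL6raKO, at 67.3% of Ctrl (difference -0.57, limma adjusted p = 0.0348). It was 1 of 6 genes that passed over all genes, a count that was 0 or 1 when any 1 array was left out.

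The 3 D-type cyclins had differences of both signs. Ccnd2 was at 6.54, 6.35, 6.65 and 6.63 in Ctrl and at 6.32, 6.17, 6.35 and 6.38 in IL6raKO. Only Ctrl replicate 2 lay among the IL6raKO values, and the difference was -0.24 (SE 0.08, 95% confidence interval -0.42 to -0.06, limma adjusted p = 0.616). Ccnd1 was at 7.58, 7.53, 7.73 and 7.74 in Ctrl and at 7.72, 7.68, 7.58 and 7.85 in IL6raKO, with overlapping groups (difference 0.06, SE 0.08). Ccnd3 ran from 6.43 to 7.04, its highest value in Ctrl replicate 4 (difference -0.17, SE 0.11). Their partner kinases Cdk4 and Cdk6 had differences of 0.01 (SE 0.07) and 0.07 (SE 0.08).

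E2f1, an activating E2F factor, was at 6.98, 7.01, 7.06 and 7.02 in Ctrl and at 6.91, 6.95, 6.91 and 6.89 in IL6raKO. Every IL6raKO array lay below every Ctrl array, but the shift was small (difference -0.10, SE 0.06, limma adjusted p = 0.725). E2f2, another activator, was at 6.52, 6.17, 6.88 and 6.74 in Ctrl and at 6.49, 6.69, 6.56 and 6.48 in IL6raKO. Its spread was within Ctrl, and the difference was -0.02 (SE 0.13). Ccne2, an E-type cyclin, was at 6.50, 6.40, 6.04 and 5.69 in Ctrl and at 6.31, 6.38, 6.35 and 6.62 in IL6raKO. The Ctrl arrays of Ccne2 spanned more than the IL6raKO arrays, and the difference of 0.26 (SE 0.15, limma adjusted p = 0.736) fell to 0.10 without Ctrl replicate 4. The other E-type cyclin gene, Ccne1, had a difference of -0.01 (SE 0.09), and Cdk2 one of 0.14 (SE 0.10).

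Cdkn1b, the brake on CDK2 complexes, was at 8.42, 8.00, 7.90 and 7.79 in Ctrl and at 8.25, 8.04, 8.18 and 8.07 in IL6raKO. The highest and the lowest arrays were both Ctrl (difference 0.11, SE 0.12, limma adjusted p = 0.864). A second Cdkn1b probe set did not follow these values: it was at 7.64, 7.94, 7.92 and 7.63 in Ctrl and gave a difference of -0.02 (SE 0.09). Ctrl replicate 1, the highest with the first probe set, was among the lowest with the second.

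**Figure D2:**
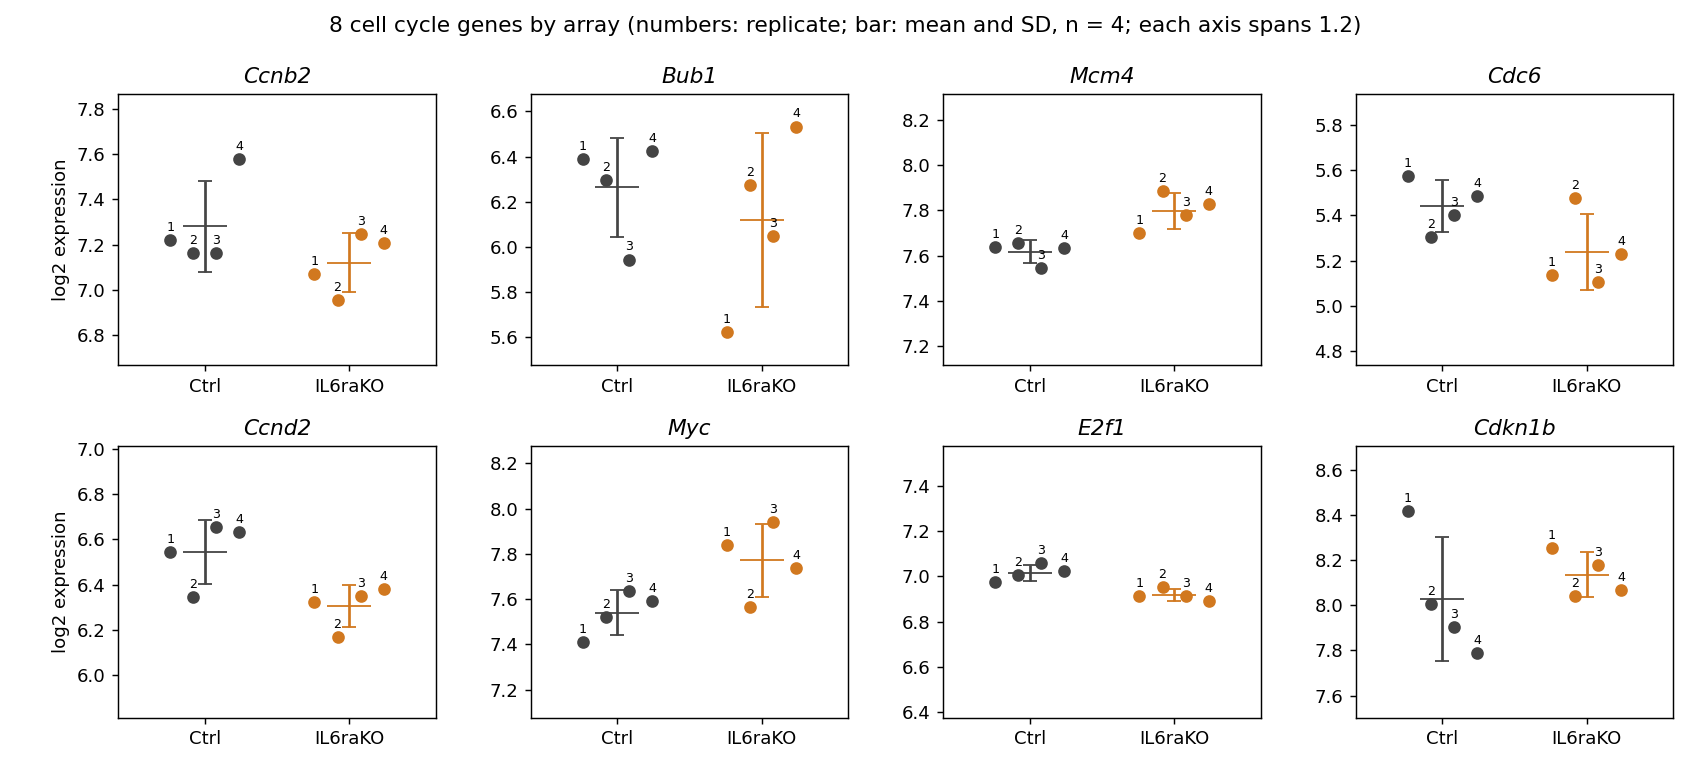
Log2 expression of 8 cell cycle genes on each array (y axis; points numbered by replicate, bars for the mean and SD of n = 4 per group). Mcm4 and E2f1 do not overlap between genotypes, Ccnd2, Myc and Cdc6 overlap through 1 array, Ccnb2 is highest in Ctrl replicate 4 (7.58), and Bub1 is lowest in IL6raKO replicate 1 (5.62).

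Mitosis genes varied together between arrays of the same genotype. Single G1 genes varied as widely, with the widest range of all 39 in Ccne2 (0.93), but not in a shared direction. For each gene the mean over the 8 arrays was subtracted, and the deviations were averaged over the genes of a role. The mitosis genes averaged 0.02, -0.03, -0.06 and 0.18 in Ctrl replicates 1 to 4 and -0.18, 0.05, -0.01 and 0.03 in IL6raKO replicates 1 to 4. Ctrl replicate 4 was thus the highest array and IL6raKO replicate 1 the lowest, a range of 0.36, and the others lay between -0.06 and 0.05. The replication genes averaged 0.00, -0.04, 0.02 and 0.04 in Ctrl and -0.07, 0.04, -0.03 and 0.05 in IL6raKO, a range of 0.12. The G1 genes averaged between -0.07 in Ctrl replicate 2 and 0.04 in IL6raKO replicate 4. All genes together averaged between -0.01 and 0.03.

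The separation was shared by most mitosis genes. In Ctrl replicate 4, 15 of 16 lay above their own mean, as did 7 of 11 replication genes, 8 of 12 G1 genes and 11845 of all 19938 genes. In IL6raKO replicate 1, 15 of 16 mitosis genes lay below their mean, with 8 of 11 replication genes, 5 of 12 G1 genes and 9862 of all 19938 genes. Ctrl replicate 4 was the highest Ctrl array for 11 of 16 mitosis genes, 4 of 11 replication genes and 3 of 12 G1 genes, against 35.2% of all genes. IL6raKO replicate 1 was the lowest IL6raKO array for 11 of 16, 5 of 11 and 3 of 12, against 24.8% of all genes. These 2 arrays were picked after their values were seen, so the counts are a description, and the difference between roles was not tested.

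**Figure D3:**
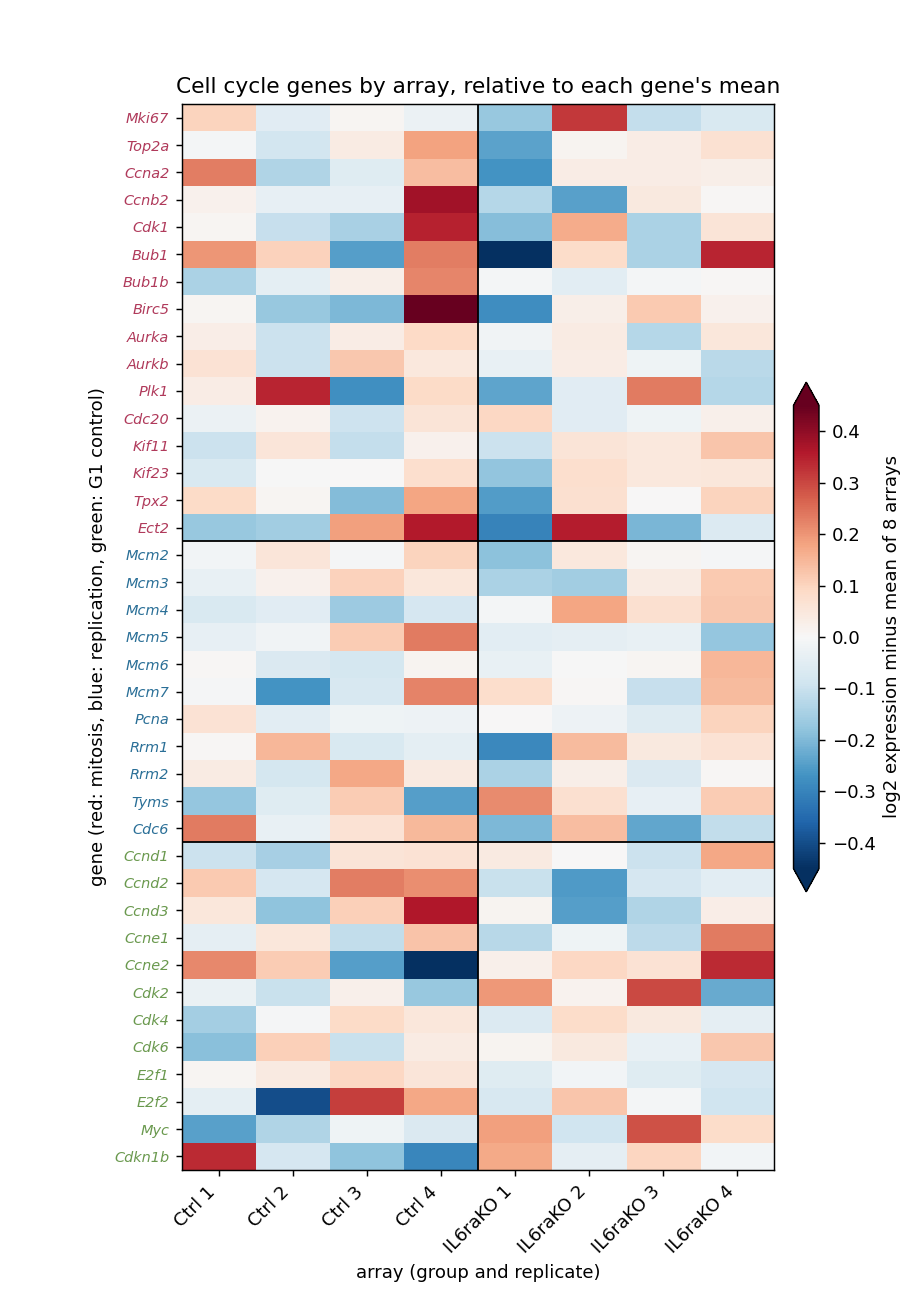
Log2 expression of the 39 genes on the 8 arrays, each minus the gene's mean over all arrays (colour scale in log2 units; rows are genes grouped by role, columns are arrays). Mitosis genes form a mostly red column in Ctrl replicate 4 and a mostly blue one in IL6raKO replicate 1, where 15 of 16 lie above and 15 of 16 below their mean. The same arrays hold 7 of 11 replication genes above and 8 of 11 below their mean, with smaller deviations.

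Averaged per genotype, the mitosis deviation of Ctrl was 0.03 ± 0.11 and that of IL6raKO -0.03 ± 0.11 (mean ± SD over 4 arrays each). They differed by -0.05, less than the spread within either group. Without Ctrl replicate 4 the difference was -0.0034, without IL6raKO replicate 1 it was -0.0030, and without both it was 0.05. These were picked as the highest Ctrl and the lowest IL6raKO array. Leaving them out therefore raises the difference by construction and cannot tell what its sign rests on. For replication genes the difference was -0.01, and for G1 genes 0.03 (Ctrl -0.01 ± 0.04, IL6raKO 0.01 ± 0.03, SD, n = 4 each). Within-genotype spread also differed by role among the 39 genes, an order that the further lists described next did not repeat. By the SD within genotypes, 5 of 16 mitosis genes (Bub1, Ect2, Birc5, Plk1 and Cdk1) and 3 of 12 G1 genes (Ccne2, E2f2 and Cdkn1b) ranked above the 90th percentile of all genes, and 0 of 11 replication genes did. The median percentile was 79.5 for mitosis, 67.0 for G1 and 40.2 for replication genes. In the further lists it was 62.5 for mitosis and 66.3 for replication genes, with 5 of 36 and 4 of 32 above the 90th percentile. At the other end E2f1 ranked at percentile 0.767 and Pcna at 8.52.

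Other genes of the same processes showed a similar order of arrays in mitosis. For 36 further mitosis genes (kinetochore, spindle and cytokinesis genes such as Cenpf, Kif2c and Anln) the mean deviation was 0.12 in Ctrl replicate 4, -0.08 in IL6raKO replicate 1 and between -0.04 and 0.02 in the other arrays. Of these genes 30 lay above their mean in Ctrl replicate 4 and 26 below it in IL6raKO replicate 1. For 32 further replication genes the same 2 values were 0.06 and 0.00, with 24 above their mean in Ctrl replicate 4 and 14 below it in IL6raKO replicate 1. Ctrl replicate 4 was the highest Ctrl array for 17 of these 32 genes (53.1%) and for 21 of the 36 mitosis genes (58.3%), so high values there were not particular to mitosis. CHR letters were in 23 of 31 of these mitosis promoters and 6 of 24 of the replication promoters, and E2F letters in 2 of 31 and 8 of 24.

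None of these further genes passed between genotypes (0 of 36, 0 of 32 and, for 27 genes of G1 brakes and the E2F family, 0 of 27, at limma adjusted p under 0.05). Their median differences were -0.04, 0.00 and 0.03. At an unadjusted p under 0.05, 2 of 36 mitosis genes were lower and 1 higher, and 0 of 32 replication genes were either. Of the last list, 1 of 27 was lower and 2 higher. Over all genes the shares were 4.54% lower and 2.74% higher. Cdca3, a trigger of mitotic entry, had the lowest adjusted p (difference -0.21, SE 0.06, limma adjusted p = 0.566). All IL6raKO values lay below all Ctrl values for 1 of 36 mitosis genes (Cdca3). They lay above them for 1 of 32 replication genes (Slbp) and 1 of 27 of the last list (E2f3). Each list had 0 genes apart in the opposite direction, and the shares over all genes were 2.37% lower and 2.07% higher. Cenpa, the centromeric histone H3 variant, had a difference of -0.21 (SE 0.08). The next mitosis genes by p, Cdca8 and Mad2l1, were higher, at 0.16 (SE 0.07) and 0.15 (SE 0.07). In the last list E2f3, an activating E2F factor, had a difference of 0.19 (SE 0.06). That of Cdc25a, the phosphatase that activates CDK2, was 0.21 (SE 0.08). Cdkn2b and Cks2, next by p in that list, were lower, at -0.14 (SE 0.06) and -0.12 (SE 0.07). Lig1, DNA ligase 1, had the lowest p of the replication list (difference 0.15, SE 0.07, limma adjusted p = 0.708). Slbp (0.12, SE 0.07), Uhrf1 (-0.15, SE 0.10) and Gins1 (-0.11, SE 0.07) came next.

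Of 8 marker lists of other cells, 3 had their highest mean in Ctrl replicate 4 and their lowest in IL6raKO replicate 1, as the mitosis genes did. The 12 markers of mast cells and basophils averaged 0.35 in Ctrl replicate 4, -0.32 in IL6raKO replicate 1 and between -0.13 and 0.14 in the other arrays. Cpa3, a carboxypeptidase of these cells, ran from 7.93 to 9.17 in Ctrl and from 7.39 to 8.55 in IL6raKO. It was highest and lowest in the same 2 arrays, as was Mcpt8, a basophil protease (6.87 to 8.33 and 6.19 to 7.67). Tpsb2 was lowest in IL6raKO replicate 2 (5.60), and Cd200r3 and Hdc in IL6raKO replicate 3 (4.24 and 5.27). Hdc was highest in IL6raKO replicate 4 (5.78). Among the 12 markers, Ctrl replicate 4 was the highest Ctrl array for 8, and IL6raKO replicate 1 the lowest IL6raKO array for 5. The shares over all genes were 35.2% and 24.8%. The 12 markers of neutrophils and granulocyte precursors averaged 0.19 and -0.23 in these arrays. They averaged between -0.08 and 0.15 in the others. The primary granule gene Elane stayed between 5.79 and 6.04, and Mpo lay between 5.97 and 6.41. The 2 measured monocyte markers, Ccr2 and Cx3cr1, averaged 0.37 and -0.49 in these arrays and between -0.14 and 0.27 in the others. Neither gene had this order by itself. Ccr2 was lowest in IL6raKO replicate 1 (7.33), but was as high in IL6raKO replicate 4 (8.696) as in Ctrl replicate 4 (8.692). Cx3cr1 was highest in Ctrl replicate 4 (8.47) and lowest in Ctrl replicate 3 (8.01), with 8.11 in IL6raKO replicate 1. The other 5 lists had their lowest mean elsewhere: erythroid and megakaryocyte markers (4) and B cell markers (5) in IL6raKO replicate 3 (-0.20 and -0.13), T and NK cell markers (6) and progenitor markers (6) in IL6raKO replicate 2 (-0.06 and -0.11), and stromal markers (6) in IL6raKO replicate 4 (-0.08). Their means in IL6raKO replicate 1 lay between -0.06 and -0.01. T and NK cell, progenitor and stromal markers also had their highest mean in Ctrl replicate 4 (0.05, 0.12 and 0.10). High values in that array were thus not particular to the first 3 lists.

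Within Ctrl and IL6raKO the list means of mast cell and basophil markers ranged from -0.13 to 0.35 and from -0.32 to 0.14. They were above their mean in Ctrl replicate 4 for 11 of 12 markers and below it in IL6raKO replicate 1 for 10 of 12. A genotype difference below 0 was found for 11 of 12, with 0 passing, against 10803 of all 19938 genes below 0. The order was not shared throughout: Ctrl replicate 1 was low in mast cell and basophil markers (-0.13) and not in mitosis genes (0.02), and IL6raKO replicate 4 was high (0.14) beside a mitosis mean of 0.03. The 8 macrophage markers averaged -0.07 in Ctrl replicate 4 and 0.01 in IL6raKO replicate 1. The values of this array scale have no 0, so no marker can be given as absent. In these bulk cultures, more dividing cells and more mitotic RNA per cell cannot be told apart, and the part of other cell types in the mitosis values was not tested. With 1 array per culture, a difference between cultures cannot be told apart from one between arrays or RNA preparations.

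**Figure D4:**
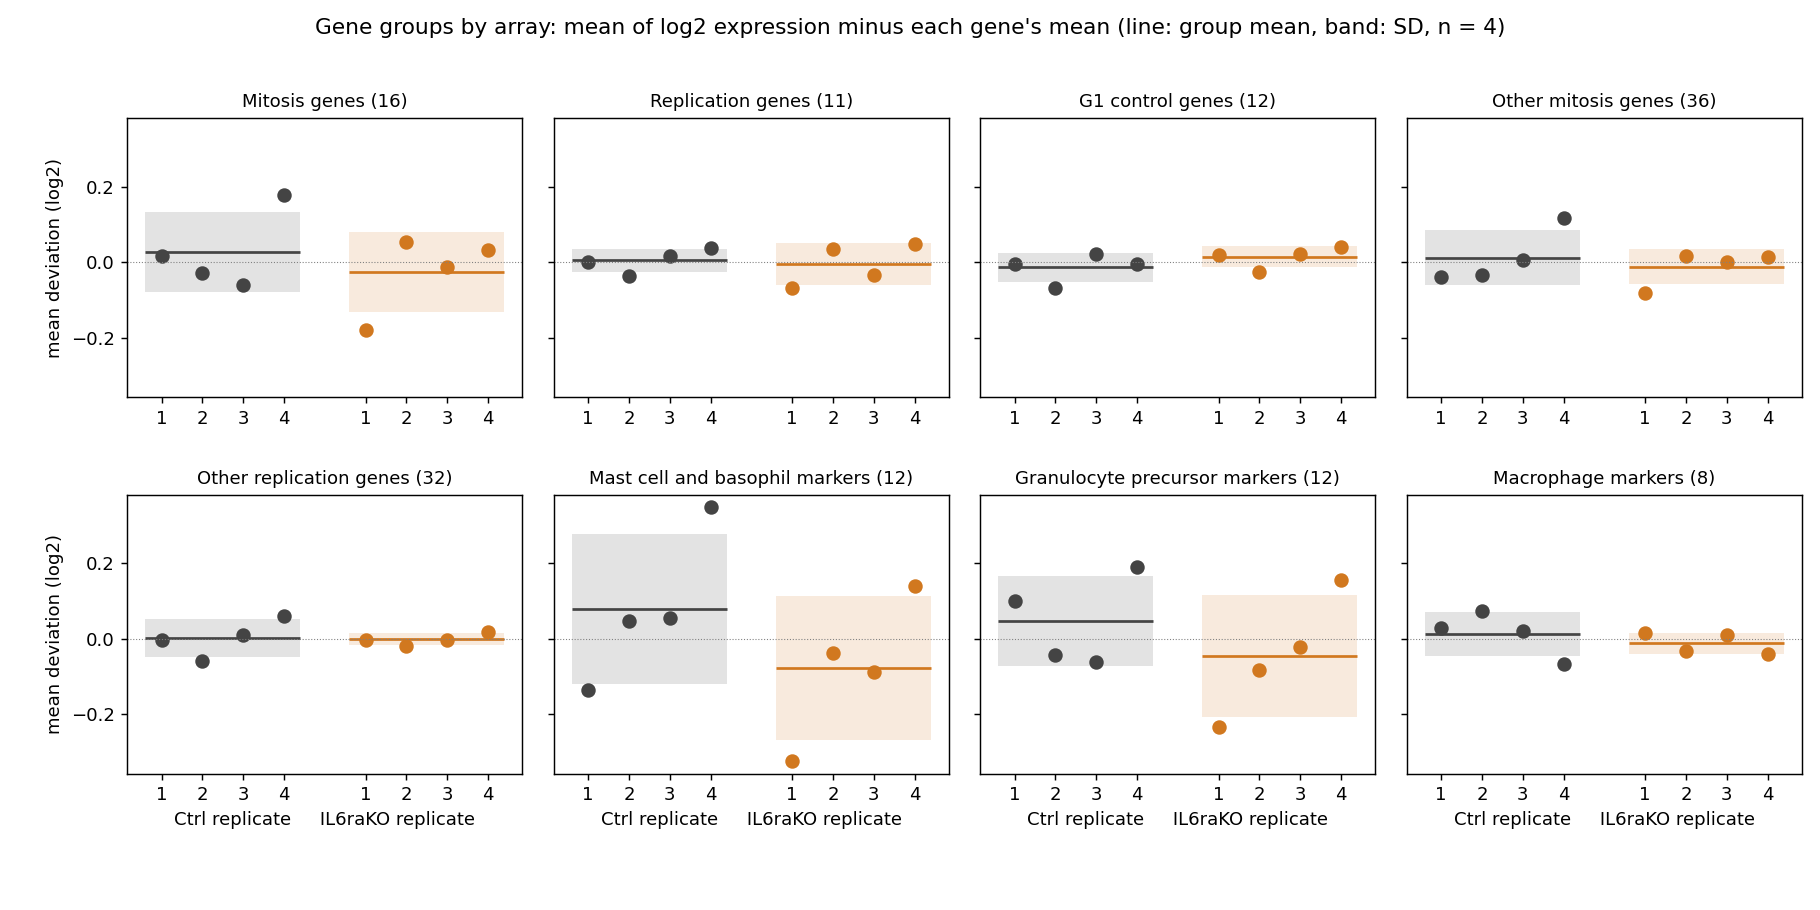
Mean deviation of 8 gene groups on each array (y axis: log2 expression minus each gene's mean over 8 arrays, averaged over the group; x axis: replicate number within Ctrl and IL6raKO; lines and bands for the mean and SD of n = 4). Mitosis genes, further mitosis genes, and mast cell and basophil markers are highest in Ctrl replicate 4 (0.18, 0.12 and 0.35) and lowest in IL6raKO replicate 1 (-0.18, -0.08 and -0.32), while replication genes span 0.12.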

How the data were processed

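Per the labels' protocols, biotin-labelled cDNA of 8 cultures was made with an Affymetrix whole-transcript kit. The authors deposited log2 values of 35556 probe sets, one for each array. Per the submitters' processing notes the tools were RMA (background correction, quantile normalization and probe summary) and R 2.13.1; the build is not given in the sources used here. That values are log2 was read from their range, 1.96 to 14.2. Dim probe sets show smaller differences after RMA. Precision is limited by the number of arrays, which have no read depth.

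Of the probe sets, 21789 had 1 gene symbol in GEO's platform annotation, 1621 had several and 12146 none. The identifiers of 21698 were in the RefSeq table of GRCm38.p6. IL6raKO was compared with Ctrl in limma 3.58.1 (R 4.3.3, lmFit and eBayes, no covariate), two-sided, over 19938 genes. On simulated data with 200 changed genes, 72.8% of changes of 0.5 and 97% of changes of 1 (log2) were recovered. Changes as small as those of the cell cycle genes (-0.24 for Ccnd2 to 0.26 for Ccne2) were not simulated. In the measured data 6 genes passed, and Il6ra, with a difference of -0.50, did not (limma adjusted p = 0.0607). The simulated shares therefore cannot tell how many changes in the cell cycle genes were missed. The genes and lists were chosen with earlier results of these data known.

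Values on every array are given, by a rule, for 8 key genes and, per role, for the 4 of lowest p and 2 of largest spread. Up to 4 of lowest p are named for the further mitosis, replication and G1 lists. The same holds for the macrophage, mast cell and basophil, neutrophil and monocyte markers. The remaining marker lists are given by their means only. Anln, Cenpf, Kif2c, Elane, Mcpt8, Csf1r, Cd68 and Itgam were chosen after their values were seen. Same-numbered arrays did not deviate together (correlations over genes from -0.011 to 0.041). Alternatives were another variance model, the number as a block, filters on dim genes, other normalizations, array weights, other probe sets and each array left out.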

Additional observations from a re-analysis of the deposited data

Results flagged for a closer look

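Among 84 sets of 4 values (39 genes and 3 role means, in each genotype), 4 held an array far away from its group. By chance about 1 in 20 sets do so, here 4.2. Ccna2 was at 6.69 in IL6raKO replicate 1, with the other IL6raKO arrays at 6.98 to 6.99. Ccnb2 was at 7.58 in Ctrl replicate 4, with the others at 7.16 to 7.22. Kif23 was at 6.80 in IL6raKO replicate 1, with the others at 7.03 to 7.06. Mcm5 was at 6.04 in IL6raKO replicate 4, with the others at 6.17 to 6.18. The 3 mitosis genes among them had their far value in the same arrays in which the mitosis mean was highest or lowest. They are part of that mean, so this match is not independent of it.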

How the results depend on the processing

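No cell cycle gene passed under any alternative run (0 in each), with the replicate block and at an adjusted p under 0.1 included. The median difference of mitosis genes stayed between -0.08 and 0.00, and that of replication genes between -0.05 and 0.01. That of G1 genes was between -0.0033 and 0.0589 with 1 array left out, the lowest without Ctrl replicate 1. The median of all genes was 0.0137 among genes at or above the median level and -0.0380 with arrays centred on their 75th percentile. Over all genes 6 passed in the fit without a block, and 0 with the replicate block; 22 passed with the trended variance model, 11 with either filter on dim genes, 3 with quantile normalization applied again, 12 at an adjusted p under 0.1, and 0 to 1 with 1 array left out. Members lower at an unadjusted p under 0.05 numbered 0 to 4, and those higher 1 to 3. Of 389 alternative differences of named genes and role means, 20 were counted as changing sign, all of them of named genes, and none of these passed. Sign changes of role means were not counted. Without both Ctrl replicate 4 and IL6raKO replicate 1, these differences were 0.0476 for mitosis and 0.0233 for replication genes, against -0.0540 and -0.0093 with all arrays. Pcna was at -0.0172 when centred, Top2a at 0.0530 with the mean of its probe sets and at 0.169 with its other one, and Cdkn1b at -0.0243 with its other one; the cause was not tested. With 1 array left out, the ranges were -0.123 to 0.0395 for Mki67, -0.102 to 0.0061 for Top2a, -0.117 to 0.0541 for Cdk1, -0.0205 to 0.0341 for Pcna, -0.281 to 0.0221 for Bub1, -0.0178 to 0.147 for Mcm7, -0.0702 to 0.0746 for Rrm1 and -0.159 to 0.0785 for E2f2. Myc (0.17 to 0.30), Ccnd2 (-0.31 to -0.19), Mcm4 (0.15 to 0.21) and Cdc6 (-0.29 to -0.16) kept their sign in each alternative that tested them; Cdc6 was below both filters on dim genes and Ccnd2 below the median one. Averages without Ctrl replicate 4 and IL6raKO replicate 1 were added after seeing the data.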
